A study of Mus musculus with 12 samples.

Results

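Glycolysis breaks glucose down to pyruvate in the cytosol with a gain of ATP and NADH, and lactate dehydrogenase then turns pyruvate into lactate and restores NAD+. Resting T cells rely mainly on oxidative metabolism, whereas activated effector T cells take up more glucose and run glycolysis even where oxygen is present, which supplies building blocks for growth and helps cytokine production. The glycolytic enzymes described here are 10 genes chosen by name, which in the order of their steps are Hk2, Gpi1, Aldoa, Tpi1, Gapdh, Pgk1, Pgam1, Eno1, Pkm and Ldha. The panel holds 8 of them among its 748 endogenous genes, and Tpi1 and Pgam1 are not on it. All 8 were among the 640 endogenous genes tested, which are those above background in at least 3 of the 12 lanes.

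The RNA came from T cells drawn with CD90.2 magnetic beads, at a purity of 80 to 85%, from KPC.Luc tumors grown under the skin of female C57BL/6 mice aged 8 to 10 weeks. KPC.Luc is a mouse line of pancreatic ductal adenocarcinoma. From day 6 to 7 after implantation and for 10 days, each mouse received 10 µg of peptide daily, a scrambled sequence (Scram) or ANT008, which blocks the receptors of vasoactive intestinal peptide (VIP). Each mouse also received 200 µg of antibody every 3 days, isotype IgG or anti-PD-1 (aPD-1), which blocks an inhibitory receptor of T cells. The control group was Scram+IgG, the antagonist alone ANT008+IgG, checkpoint blockade alone Scram+aPD-1 and the combination ANT008+aPD-1, so that 4 groups of 3 different mice filled 1 lane per mouse. The lanes were read on the nCounter Mouse Metabolic Pathways panel, which counts barcoded probes on RNA molecules without amplification.

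The depth differed widely between lanes. The endogenous counts of a lane summed to 1388586, 256703 and 1486646 in Scram+IgG mice 1 to 3, and to 1357305, 202511 and 100293 in the ANT008+IgG mice. They summed to 1480466, 664792 and 93480 in the Scram+aPD-1 mice and to 5776, 268678 and 24813 in mice given ANT008+aPD-1. ANT008+aPD-1 mice 1 and 3 therefore had the shallowest lanes of the 12, with 79.1% and 52.3% of the endogenous genes at or below background, against 13.4% to 30.9% in the other lanes. Background here is the mean plus 2 SD of the 8 negative control probes of a lane. Of the 8 enzymes, 6 exceeded it in ANT008+aPD-1 mouse 1 and 7 in mouse 3. Hk2, Aldoa, Gapdh, Eno1, Pkm and Ldha exceeded it in all 12 lanes, Pgk1 in 11 and Gpi1 in 7. In ANT008+aPD-1 mouse 1 the count of Hk2 was only 1.11 times the background.

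To compare mice, counts were divided by the size of the lane, the geometric mean of Dnajc14, Oaz1 and Ubb, the 3 of 20 housekeeping genes above background in every lane. A count at the background of a lane then becomes a scaled count of 358 in ANT008+aPD-1 mouse 1, 13.8 in mouse 2 and 149 in mouse 3, against 3.42 to 46.3 in the other groups. Scaled counts below those values cannot be seen in these lanes. The 3 genes did not keep one proportion among themselves, since Dnajc14 was between 0.135 and 1.30 times the count of Oaz1.

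Glycolytic enzymes took between 9.71% and 17.7% of all endogenous counts of a lane. Their share was 12.5%, 15.9% and 16.5% in Scram+IgG mice 1 to 3, and 11.3%, 14.7% and 15.1% in the ANT008+IgG mice. It was 14.6%, 17.5% and 17.7% in the Scram+aPD-1 mice and 9.71%, 14.4% and 11.8% in mice given ANT008+aPD-1. The share was thus 15.0% ± 2.12 (SD, n = 3) with Scram+IgG, 13.7% ± 2.09 under ANT008+IgG, 16.6% ± 1.72 under Scram+aPD-1 and 12.0% ± 2.35 with ANT008+aPD-1, and the groups overlapped except that all 3 ANT008+aPD-1 mice lay below all 3 Scram+aPD-1 mice. In ANT008+aPD-1 mouse 1 the 95% exact (Clopper-Pearson) interval of the share was 8.96% to 10.5%, which covers counting error only. Background counts make up more of a shallow lane, so the share was also taken after the mean of the negative controls was subtracted from every gene. It was then 16.8%, 14.7% and 13.8% in the ANT008+aPD-1 mice, or 15.1% ± 1.56, beside 15.1% ± 2.18 with Scram+IgG, and the ANT008+aPD-1 mice overlapped every other group, Scram+aPD-1 (16.9% ± 1.96) included. Among the 142 genes above background in all lanes, without subtraction, the share was 16.48%, 20.19% and 16.47% in the ANT008+aPD-1 mice, still below the 20.24%, 26.04% and 23.38% of the Scram+aPD-1 mice, by a small margin for mouse 2.

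**Figure D1:**
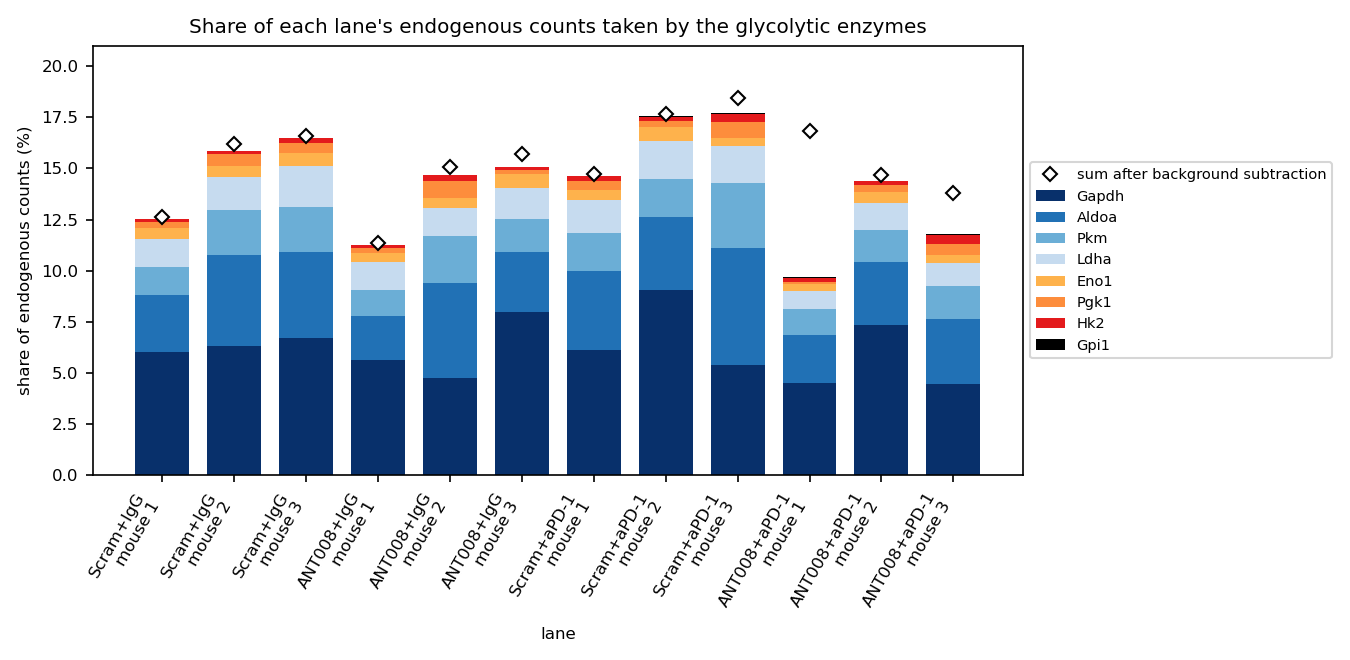
Share of the endogenous counts of each lane taken by the glycolytic enzymes (stacked bars, percent, 1 bar per mouse), with the sum after background subtraction as a diamond. ANT008+aPD-1 mouse 1 has the lowest bar, 9.71%, and its diamond stands at 16.8%, within the range of the other groups.

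Hexokinase 2, encoded by Hk2, traps glucose in the cell by phosphorylating it and is the inducible hexokinase of activated T cells. Its scaled count was 327, 409 and 516 in Scram+IgG mice 1 to 3, 342, 1041 and 301 in the ANT008+IgG mice, 640, 430 and 1635 in the Scram+aPD-1 mice and 396, 453 and 1263 in mice given ANT008+aPD-1. In each treated group 1 mouse stood above the others, ANT008+IgG mouse 2, Scram+aPD-1 mouse 3 and ANT008+aPD-1 mouse 3, and all groups overlapped. The value of ANT008+aPD-1 mouse 1 rests on 11 counts, with a 95% Poisson interval of 5.49 to 19.7 counts. That interval covers the background of the lane, 9.94 counts, so Hk2 in this mouse cannot be told apart from background.

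Glucose-6-phosphate isomerase, encoded by Gpi1, was the enzyme nearest to background. Its raw count was 99, 11 and 87 in Scram+IgG mice 1 to 3, 123, 7 and 13 in the ANT008+IgG mice, 65, 62 and 4 in the Scram+aPD-1 mice and 3, 29 and 8 in mice given ANT008+aPD-1. The counts of mouse 2 with Scram+IgG, mouse 2 with ANT008+IgG, mouse 3 with Scram+aPD-1 and mice 1 and 3 with ANT008+aPD-1 did not exceed the background of their lanes. Scaled, the ANT008+aPD-1 values became 108, 22.9 and 96.3, against 10.5 to 25.9 in the other 3 groups. The high values of mice 1 and 3 lie below the scaled background of their lanes, so they show no more Gpi1 than the negative controls allow, and only mouse 2 gives a level above background in that group.

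Aldolase A, encoded by Aldoa, splits fructose bisphosphate into triose phosphates. It had scaled counts of 6346, 10801 and 9790 in Scram+IgG mice 1 to 3, 4731, 16182 and 5936 in the ANT008+IgG mice, 10052, 7136 and 21918 in the Scram+aPD-1 mice and 4830, 6517 and 9482 in mice given ANT008+aPD-1. Scram+aPD-1 mouse 3 and ANT008+IgG mouse 2 were the highest of the 12, and the groups overlapped.

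Glyceraldehyde-3-phosphate dehydrogenase, encoded by Gapdh, makes the NADH of the pathway and varied least among the enzymes above background in every lane. Scaled counts were 13556, 15486 and 15609 in Scram+IgG mice 1 to 3, 12115, 16628 and 15935 in the ANT008+IgG mice, 16191, 18293 and 20627 in the Scram+aPD-1 mice and 9443, 15605 and 13369 in mice given ANT008+aPD-1. All 3 Scram+aPD-1 mice lay above all Scram+IgG and all ANT008+aPD-1 mice, and the other groups overlapped. Even in ANT008+aPD-1 mouse 1 the value rests on 262 counts, with a 95% Poisson interval of 231 to 296.

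Phosphoglycerate kinase 1, encoded by Pgk1, makes the first ATP of the pathway and spread widely within groups. The scaled count of Pgk1 was 704, 1363 and 1184 in Scram+IgG mice 1 to 3, 462, 2845 and 421 in the ANT008+IgG mice, 1197, 612 and 2996 in the Scram+aPD-1 mice and 252, 663 and 1600 in mice given ANT008+aPD-1. The highest and the lowest mouse of a treated group were thus several-fold apart, and the groups overlapped. In ANT008+aPD-1 mouse 1 Pgk1 was counted 7 times, below the background of the lane.

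Enolase 1, encoded by Eno1, forms phosphoenolpyruvate. Scaled counts of Eno1 were 1192, 1369 and 1452 in Scram+IgG mice 1 to 3, 1007, 1697 and 1353 in the ANT008+IgG mice, 1333, 1352 and 1541 in the Scram+aPD-1 mice and 685, 1186 and 1215 in mice given ANT008+aPD-1. All 3 ANT008+aPD-1 mice lay below all 3 Scram+aPD-1 mice, by a small margin for mouse 3, and other pairs of groups overlapped. The lowest value, that of ANT008+aPD-1 mouse 1, rests on 19 counts (95% Poisson interval 11.4 to 29.7).

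Pyruvate kinase, encoded by Pkm, makes the last ATP of the pathway as it forms pyruvate. Scaled, Pkm had counts of 3041, 5403 and 5044 in Scram+IgG mice 1 to 3, 2736, 7863 and 3156 in the ANT008+IgG mice, 4912, 3733 and 12193 in the Scram+aPD-1 mice and 2667, 3264 and 4753 in mice given ANT008+aPD-1. As for Aldoa, Scram+aPD-1 mouse 3 and ANT008+IgG mouse 2 were highest and the groups overlapped.

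Lactate dehydrogenase A, encoded by Ldha, turns pyruvate into lactate. Its scaled count was 3141, 3938 and 4704 in Scram+IgG mice 1 to 3, 2893, 4822 and 3068 in the ANT008+IgG mice, 4230, 3770 and 6816 in the Scram+aPD-1 mice and 1838, 2825 and 3381 in mice given ANT008+aPD-1. All 3 ANT008+aPD-1 mice lay below all 3 Scram+aPD-1 mice, and they overlapped the other groups.

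**Figure D2:**
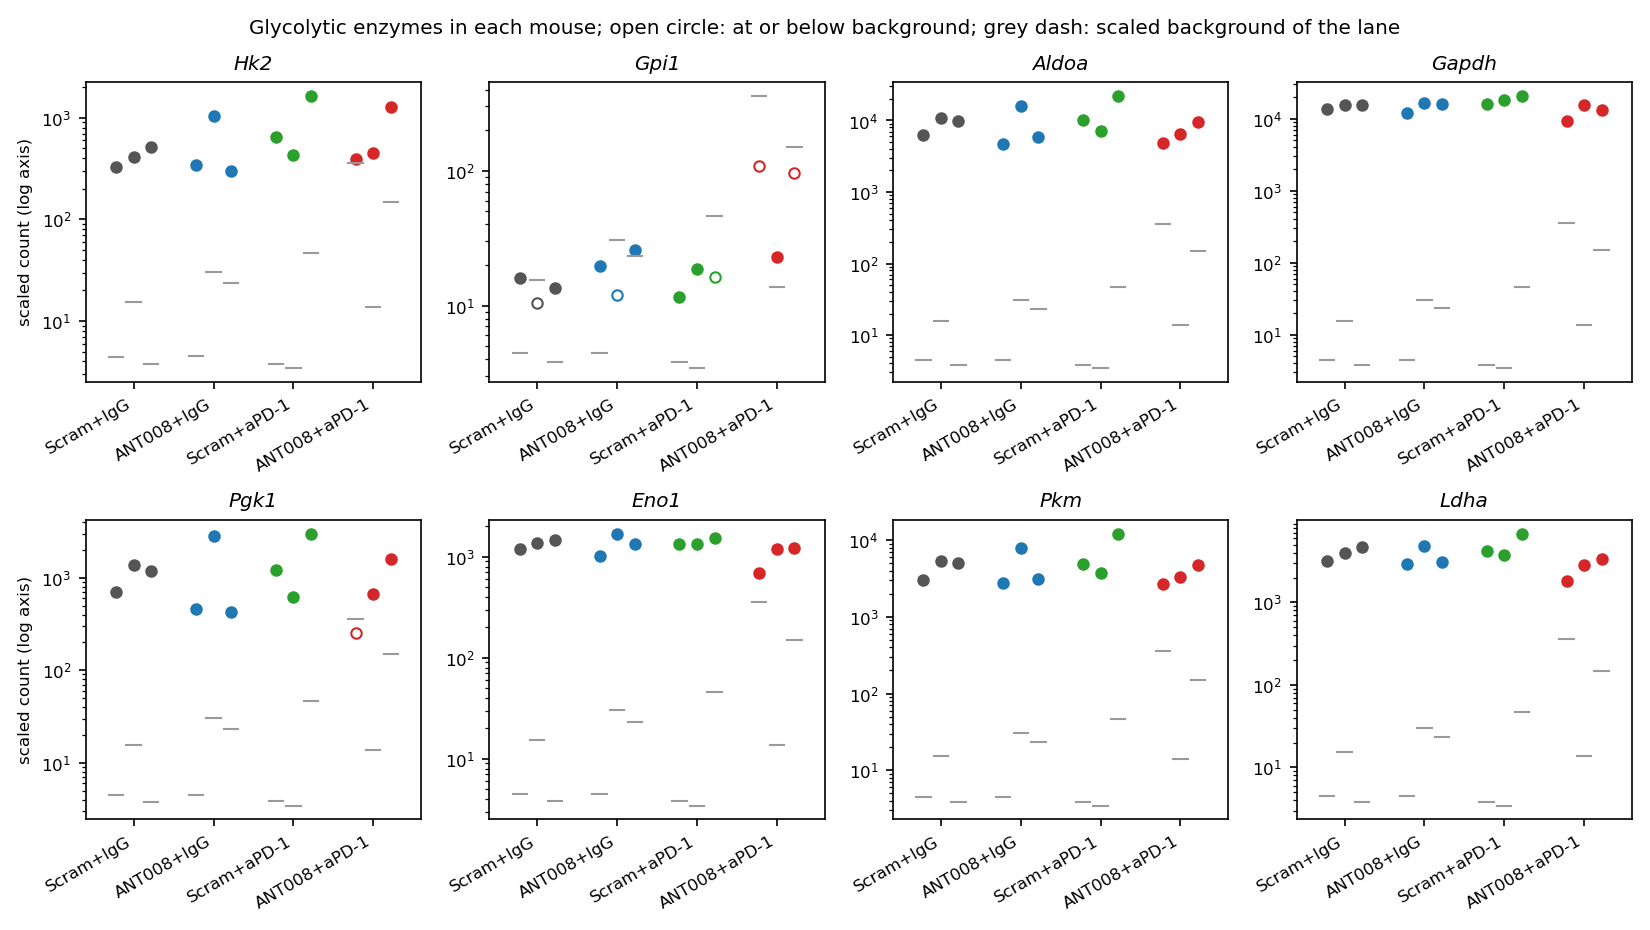
Scaled count of each of the 8 enzymes on a log axis, 1 point per mouse in the 4 groups, with open circles for counts at or below the background of the lane and a grey dash for the scaled background of that lane. Gapdh and Eno1 keep to a narrow band, Pgk1 and Hk2 spread within groups, and the high Gpi1 points of ANT008+aPD-1 mice 1 and 3 are open circles below their dashes.

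ANT008+IgG was compared with Scram+IgG to ask what the VIP receptor antagonist does alone. Gapdh had 14893 ± 2431 scaled counts (SD, n = 3 mice) with ANT008+IgG and 14884 ± 1152 with Scram+IgG, and Eno1 had 1352 ± 345 and 1338 ± 133. The log2 fold changes of the 8 enzymes ran from -0.13 for Ldha to 0.50 for Gpi1, with a median of 0.02 beside 0.11 over the 640 genes, and 3 of the 8 lay above that panel median. For Gapdh the 95% interval of the log2 fold change was -0.75 to 0.75 and for Pgk1 -1.61 to 2.01, so the data do not tell apart changes inside these bounds. Of the 8 enzymes, 0 passed an FDR below 0.1 in edgeR's quasi-likelihood test, where 0 of the 640 genes (0%) did. At an unadjusted p below 0.05 there were 0 enzymes, against 0.469% of the genes, and 0 enzymes had groups that did not overlap, against 3.44%. DESeq2 and limma on log2 scaled counts called 0 genes here, while limma's voom with sample weights called 44, with 0 of the 8 enzymes among them, and gave the enzymes a median of -0.46 beside -0.02 over the panel.

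Scram+aPD-1 was compared with Scram+IgG to ask what checkpoint blockade does alone. All 8 enzymes had a positive log2 fold change, from 0.07 for Eno1 to 1.10 for Hk2, with a median of 0.43 beside 0.15 over the 640 genes, while lanes scaled by the positive controls gave a median of -0.63 beside -0.83. With the housekeeping scaling 7 of the 8 lay above the panel median. Hk2 had 902 ± 644 scaled counts (SD, n = 3) with Scram+aPD-1 and 417 ± 94.8 with Scram+IgG, and a log2 fold change of 1.10 with a 95% interval of -0.29 to 2.50 (FDR = 0.988, edgeR), which was 0.36 without Scram+aPD-1 mouse 3. Pkm had 6946 ± 4582 and 4496 ± 1273, a log2 fold change of 0.63 (FDR = 0.988), which rests on the same mouse and is -0.057 without it. Gapdh had 18370 ± 2219 and 14884 ± 1152, a log2 fold change of 0.30 (FDR = 0.988), and its mice did not overlap (exact permutation p = 0.1, two-sided, and groups of 3 can give no smaller value). Gapdh was the 1 enzyme of 8 with groups apart, where 4.06% of all tested genes were. Of the enzymes, 0 passed the FDR threshold in edgeR, where 0 of the 640 genes (0%) did, and 0 had an unadjusted p below 0.05, against 1.09%. DESeq2 and limma on log2 scaled counts again called 0 genes, and voom called 143, with 0 of the enzymes among them. The positive median also rests on Scram+aPD-1 mouse 3, without which it is 0.02, beside -0.07 for the median of all genes.

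ANT008+aPD-1 was compared with Scram+IgG to ask what both agents do together. Ldha, Aldoa, Eno1, Pgk1, Pkm and Gapdh had negative log2 fold changes, from -0.55 for Ldha to -0.22 for Gapdh, while Hk2 and Gpi1 had positive ones, which turned negative with lanes scaled by the positive controls. Ldha had 2681 ± 781 scaled counts (SD, n = 3) with ANT008+aPD-1 and 3928 ± 782 with Scram+IgG, and a log2 fold change of -0.55 with a 95% interval of -1.41 to 0.32 (FDR = 0.565, edgeR). Gapdh had 12806 ± 3119 and 14884 ± 1152, a log2 fold change of -0.22 (FDR = 0.819), which was 0.07 without ANT008+aPD-1 mice 1 and 3. Pgk1 had -0.34 (FDR = 0.895), which was 0.052 without ANT008+aPD-1 mouse 1 and -1.17 without mouse 3. With 1 mouse left out at a time Ldha ran from -0.74 to -0.34 and Aldoa from -0.66 to -0.17. Eno1 then ran from -0.49 to -0.16 and Pkm from -0.60 to -0.17. Hk2 had 704 ± 485 and 417 ± 94.8, a log2 fold change of 0.77 (FDR = 0.617), which was 0.04 without ANT008+aPD-1 mouse 3. The median of the 8 enzymes was -0.34, beside 0.12 over the 640 genes, and 6 of the 8 lay below that panel median. In bulk RNA of sorted cells, less RNA of an enzyme per cell cannot be told apart from fewer cells of a type that carries it.

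The distance of the enzymes from the rest of the panel in the combination differed between alternatives. After subtraction of the negative controls the median of the 8 enzymes was -0.38 and the panel median was -0.38 as well. Without ANT008+aPD-1 mice 1 and 3, which leaves 1 lane in that group, the median of the enzymes was -0.32 and that of the panel -0.27. In these 2 alternatives the median of the enzymes thus moved little and that of the panel lay close to it, and what part depth or single mice had in this was not tested.

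Gpi1 had the largest value of the 8 in the combination, a log2 fold change of 2.17 with a 95% interval of 0.78 to 3.57 (FDR = 0.309, edgeR), of which 2 of 3 mice rest on counts at or below background. It was the 1 enzyme of 8 with an unadjusted p below 0.05, where 12.8% of the tested genes had one. Of the 6 enzymes above background in all lanes 0 had groups apart, where 10.6% of the 142 such genes did. In edgeR 0 enzymes passed an FDR below 0.1, as did 0 of the 640 genes (0%), and limma on log2 scaled counts called 0 genes. DESeq2 called 30 genes and voom 156, Gpi1 being the 1 enzyme among them in each (FDR = 0.0788 and 0.0192). With the background subtracted the log2 fold change of Gpi1 was 0.98 (FDR = 0.647), and without ANT008+aPD-1 mice 1 and 3 it was 0.75 (FDR = 0.885). Over all alternatives its FDR ran from 0.0192 to 0.885, and it was 0.0334 without ANT008+aPD-1 mouse 2, the lane of that group in which Gpi1 exceeded background, and 0.0892 without Scram+IgG mouse 1. The number of genes called also rested on single mice, with 84 without Scram+IgG mouse 1 and 68 without ANT008+aPD-1 mouse 2.

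Cell type markers on the panel differed between the groups as well. Their summed share of the endogenous counts, after background subtraction, is given below. The 9 T cell markers of 12 listed that the panel holds took 2.12%, 0.314% and 0.342% in Scram+IgG mice 1 to 3, 1.46%, 0.455% and 0.756% under ANT008+IgG, 1.16%, 0.813% and 0.631% under Scram+aPD-1 and 2.57%, 1.68% and 1.78% with ANT008+aPD-1. All 9 exceeded background in 11 lanes and 6 did in ANT008+aPD-1 mouse 1, none was at 0, and Cd3g, Cd3d or Cd28 was the most abundant. The combination, in which most enzymes had negative values, thus had a higher share of T cell markers in all 3 mice than every mouse of the single agents, and Scram+IgG mouse 1 lay among its mice. Of the myeloid markers, Cd14, Cd68, Cybb and 3 others on the panel took 0.847%, 0.154% and 0.289% in Scram+IgG mice 1 to 3, 0.873%, 0.393% and 0.347% under ANT008+IgG, 0.931%, 0.503% and 0.493% under Scram+aPD-1 and 1.43%, 0.985% and 0.854% with ANT008+aPD-1. The mean was 1.09% ± 0.30 (SD, n = 3) in the combination and between 0.43% and 0.64% in the other groups. Cd68, Cd14 or Cybb was the most abundant of these 6, none was at 0, and 3 exceeded background in ANT008+aPD-1 mouse 1 and 5 or 6 elsewhere. Stroma and vessel markers (2 of 10, Col4a1 most abundant, none at 0) took 0.0982%, 0.293% and 0.223% in Scram+IgG mice 1 to 3, 0.148%, 0.227% and 0.151% under ANT008+IgG, 0.107%, 0.155% and 0.286% under Scram+aPD-1 and 0.0361%, 0.0846% and 0.0511% with ANT008+aPD-1, so that the combination lay below every other mouse. In ANT008+aPD-1 mouse 1 neither of the 2 exceeded background, and without the subtraction its share was 0.156%, within the range of the other groups. NK cell markers (2 of 3 on the panel) took between 0.0220% and 0.299% and B cell markers (2 of 4) at most 0.00420%, while none of the 6 tumor or epithelial markers is on the panel. The part of cell composition and of depth in the values of the enzymes was not tested.

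The contrast of ANT008+aPD-1 with ANT008+IgG asks what anti-PD-1 adds to the antagonist. The same 6 enzymes had negative log2 fold changes, from -0.54 for Pgk1 to -0.22 for Gapdh, Hk2 had 0.34 and Gpi1 1.68 (FDR = 0.578, edgeR). The median of the 8 was -0.36, beside -0.04 over the panel, and without ANT008+IgG mouse 2, the mouse of that group with high Pgk1, Aldoa and Pkm, it was 0.33. With voom and all mice kept the median was 0.33 as well, close to that of the panel. With the background subtracted the enzymes lay 0.03 above the panel median, and Gpi1 had a log2 fold change of 0.73. Of the 8 enzymes 0 passed an FDR below 0.1 in edgeR, where 0 of the 640 genes (0%) did. Gpi1 was the 1 enzyme with an unadjusted p below 0.05, where 7.81% of the genes had one, and 0 enzymes had groups apart, where 13.6% of the genes did. DESeq2 called 5 genes, voom 5 and limma on log2 scaled counts 0, and without ANT008+aPD-1 mouse 2 edgeR called 26, Gpi1 among them (FDR = 0.0565, and up to 0.899 over its alternatives).

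The contrast of ANT008+aPD-1 with Scram+aPD-1 asks what the antagonist adds to checkpoint blockade. With the positive controls as scaling, the antagonist alone had its enzymes further below the panel (-0.37) than this contrast. In edgeR with the housekeeping scaling and all mice, the enzymes lay furthest below the panel in this contrast. All except Gpi1 had negative log2 fold changes, and their median was -0.70, beside -0.04 over the 640 genes. Ldha had 2681 ± 781 scaled counts (SD, n = 3) with ANT008+aPD-1 and 4938 ± 1642 with Scram+aPD-1, a log2 fold change of -0.88 with a 95% interval of -1.75 to -0.00 (FDR = 0.751, edgeR). Gapdh had 12806 ± 3119 and 18370 ± 2219, a log2 fold change of -0.52 (FDR = 0.751), and Eno1 had 1029 ± 298 and 1409 ± 115, a log2 fold change of -0.44 (FDR = 0.757). For these 3 enzymes every ANT008+aPD-1 mouse lay below every Scram+aPD-1 mouse (exact permutation p = 0.1 each). Pkm had a log2 fold change of -0.96, Aldoa -0.91 and Pgk1 -0.90, larger than those of Gapdh and Eno1. The mice overlapped for Pkm, Aldoa and Pgk1, and Scram+aPD-1 mouse 3 was far above the others. With 1 mouse left out at a time, these values rose to as high as -0.28, -0.31 and -0.08. Each of these lies above the highest value of Gapdh then, -0.34, so the order rests on single mice. The log2 fold change of Hk2 was -0.34 and turned to 0.41 without Scram+aPD-1 mouse 3. Gpi1 had 1.99 (FDR = 0.747), and 0.78 after background subtraction.

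Of the 6 enzymes above background in all lanes, 3 thus had groups that did not overlap in that comparison, all lower, where 13.4% of the 142 such genes had. Gpi1 is not counted, since its counts in ANT008+aPD-1 mice 1 and 3 did not exceed background. In edgeR 0 enzymes passed an FDR below 0.1, where 0 of the 640 genes (0%) did, and 2 had an unadjusted p below 0.05, Ldha and Gpi1, against 6.25% of the genes. DESeq2 called 5 genes, voom 0 and limma on log2 scaled counts 0, with 0 enzymes among them, and edgeR called 35 without ANT008+aPD-1 mouse 2, among which was Gpi1 (FDR = 0.0398, and up to 0.997 over its alternatives). The median of the enzymes lay below that of the panel in all 21 alternatives, by between -0.91 and -0.25, the smaller distance coming with background subtraction. Without Scram+aPD-1 mouse 3 the median of the enzymes was -0.29. Gapdh and Eno1 lay 0.12 and 0.11 above the panel median without ANT008+aPD-1 mice 1 and 3, and Ldha lay -0.45 from it.

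The interaction of ANT008 and anti-PD-1 asks whether the agents together differ from the sum of each alone. It was negative for 7 enzymes, from -1.1 for Pgk1 to -0.45 for Eno1, and 1.49 for Gpi1, with a median of -0.76 beside -0.17 over the panel. With voom both medians were 0.25. In edgeR 0 enzymes passed an FDR below 0.1 (FDR = 0.993 for each of the 8), where 0 of the 640 genes (0%) did, and 0 had an unadjusted p below 0.05, against 1.41%. DESeq2, voom and limma on log2 scaled counts each called 0 genes, and edgeR called 1 without ANT008+aPD-1 mouse 2. The 3 comparisons with Scram+IgG share its mice and the 3 that involve ANT008+aPD-1 share its lanes, so their values for the enzymes are not independent of each other.

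The enzymes differed in how much they varied from mouse to mouse. Over the 12 mice the SD of log2 scaled counts was 0.291 for Gapdh, 0.336 for Eno1, 0.478 for Ldha, 0.659 for Pkm, 0.675 for Aldoa and 0.808 for Hk2, against a median of 0.645 over the 142 genes above background in all lanes. Gapdh was at percentile 4.23 and Eno1 at percentile 11.3 of these genes, ordered from the least variable. Neither Gapdh nor Eno1 served in the scaling of the lanes.

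Most pairs of enzymes were high and low in the same mice. Aldoa and Pkm had a Pearson r of 0.99 between their log2 scaled counts (permutation p = 1e-05, the smallest that the permutations can give, adjusted p = 5.25e-05 over 21 pairs) and a Spearman rho of 0.98 (adjusted permutation p = 0.00021). The r stayed at 0.99 without ANT008+IgG mouse 2 and Scram+aPD-1 mouse 3, the mice farthest from the median of Aldoa, and between the deviations from group means. Aldoa and Pgk1 had an r of 0.95 (adjusted permutation p = 5.25e-05) and a rho of 0.91 (adjusted permutation p = 0.000892), with 0.93 without the same mice. Gapdh and Eno1 had an r of 0.89 (adjusted permutation p = 0.000945) and a rho of 0.76 (adjusted permutation p = 0.00916), with 0.74 without Scram+aPD-1 mouse 3 and ANT008+aPD-1 mouse 1.

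Some pairs were looser. Gapdh and Pgk1 had an r of 0.65 (adjusted permutation p = 0.0215) and a rho of 0.45 (adjusted permutation p = 0.147), and r was 0.19 without Scram+aPD-1 mouse 3 and ANT008+aPD-1 mouse 1, so their relation rests on those mice. Hk2 and Gapdh had an r of 0.42 (adjusted permutation p = 0.17) and a rho of 0.46 (adjusted permutation p = 0.141), with 0.37 without Scram+aPD-1 mouse 3 and ANT008+aPD-1 mouse 3. Of the 21 pairs of the enzymes other than Gpi1, 19 had an adjusted p below 0.05 by Pearson's r and 18 by Spearman's rho. Among the 6 enzymes above background in all lanes 86.7% of the 15 pairs had a positive r with an unadjusted permutation p below 0.05, against 29.3% of the 10011 pairs of the 142 genes. All of these values share the size of the lane, by which both members of a pair were divided, and no batch is given in the labels within which they could be taken again.

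A ratio of 2 enzymes in a lane is free of that scaling. Pgk1 was 5.20%, 8.80% and 7.59% of the count of Gapdh in Scram+IgG mice 1 to 3, 3.82%, 17.1% and 2.64% in the ANT008+IgG mice, 7.39%, 3.35% and 14.5% in the Scram+aPD-1 mice and 2.67%, 4.25% and 12.0% in mice given ANT008+aPD-1. Its highest values came from 1 mouse of each treated group, which were also the mice with the most Hk2, and from no group as a whole. The ratio of Aldoa to Gapdh ordered the mice in a like way, with 97.3% in ANT008+IgG mouse 2 and 106% in Scram+aPD-1 mouse 3, against 37.2% to 70.9% in the other mice.

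The same mice stood apart in the proportion of the housekeeping genes. The ratio of Dnajc14 to Oaz1 was 0.138, 0.618 and 0.309 in Scram+IgG mice 1 to 3, 0.135, 1.30 and 0.153 in the ANT008+IgG mice, 0.196, 0.181 and 0.929 in the Scram+aPD-1 mice and 0.343, 0.197 and 0.811 in mice given ANT008+aPD-1. On log2 scales the ratio of Pgk1 to Gapdh followed it with a Pearson r of 0.82 (permutation p = 0.00127, adjusted p = 0.00508 over 4 relations, 3 of them given here) and a Spearman rho of 0.75 (permutation p = 0.00645, adjusted p = 0.0258). Without ANT008+IgG mouse 2 and Scram+aPD-1 mouse 3 r was 0.66, and between deviations from group means it was 0.87. This pair of ratios was chosen after the values were seen. The ratio of Pgk1 to Gapdh had an r of -0.45 with the share of T cell markers (adjusted permutation p = 0.289; rho -0.44, adjusted permutation p = 0.308) and 0.02 with the endogenous total (adjusted permutation p = 0.938; rho -0.04, adjusted permutation p = 0.904). RNA quality values for the samples are not used here, and what the 2 ratios share was not tested.

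**Figure D3:**
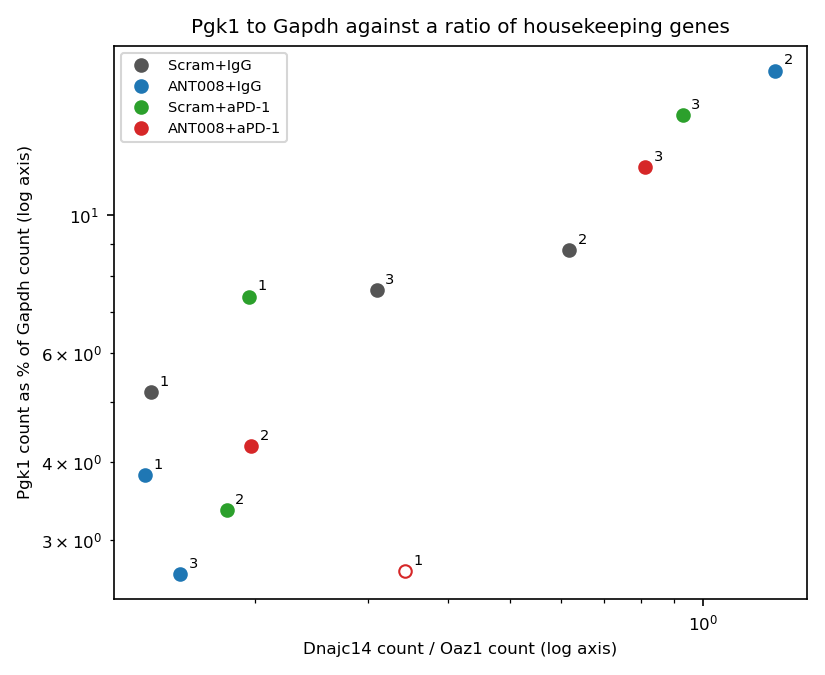
Count of Pgk1 as a percentage of that of Gapdh against the ratio of the housekeeping genes Dnajc14 and Oaz1, both on log axes, 1 point per mouse coloured by group and numbered by mouse, with an open point where Pgk1 was at or below background. The mice with a high ratio of Dnajc14 to Oaz1, such as ANT008+IgG mouse 2 (1.30) and Scram+aPD-1 mouse 3 (0.929), have high Pgk1 relative to Gapdh (17.1% and 14.5%).

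The genes whose pattern over the 12 mice was most like the mean of the enzymes, among 136 other genes above background in all lanes, were Cox5b (Pearson r 0.92), Sem1 (0.92), Cox7c (0.92), Atp5k (0.91) and Cdk9 (0.91). With Gpi1 left out of the mean the same genes had 0.93, 0.88, 0.93, 0.88 and 0.93, so their order rests on Gpi1. The enzymes themselves had an r with that mean of between 0.77 for Gapdh and 0.97 for Aldoa, except Gpi1 with -0.36. These r values describe 12 mice and carry no test.

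Each enzyme was read by 1 probe with a target of 100 bases. The targets of Gapdh, Eno1 and Pkm are shown, since Gapdh and Eno1 varied least and Pkm had the lowest value in ANT008+aPD-1 against Scram+aPD-1. That rank of Pkm holds with all mice kept. With 1 mouse left out at a time its value rose to as high as -0.28, above the highest of Ldha, -0.57. The closest other target of the panel to that of Eno1 is that of Eno3, its muscle isoenzyme, with 73% identical bases, and the closest to that of Gapdh is that of Gapdhs, its sperm isoenzyme, with 50%. For the other enzymes the closest target had 40% to 47% identical bases.
Gapdh: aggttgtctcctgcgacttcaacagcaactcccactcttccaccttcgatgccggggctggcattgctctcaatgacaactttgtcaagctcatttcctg
Eno1: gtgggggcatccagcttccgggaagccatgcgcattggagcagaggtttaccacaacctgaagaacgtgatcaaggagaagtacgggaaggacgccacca
Pkm: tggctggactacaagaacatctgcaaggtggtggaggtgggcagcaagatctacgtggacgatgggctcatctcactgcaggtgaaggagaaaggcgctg

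Hk2, Pgk1 and Ldha are among the known targets of the hypoxia-inducible factors, which bind DNA at a short core, searched here as ACGTG alone. RefSeq promoter windows of GRCm38.p6, the 250 bases before a gene's start, were found for all 8 enzymes, and ACGTG occurs on either strand in 6 of their 14 windows and in 5 of the 8 genes, with none in those of Gpi1, Gapdh and Eno1. Of all 32851 windows 16.6% hold it, as do 18.5% of 27025 genes. The windows of Hk2 (chr6:82774455-82774704, minus strand, 2 matches), Pgk1 (chrX:106186850-106187099, plus strand, 2 matches) and Ldha (chr7:46845554-46845803, plus strand, 5 matches) are shown because they hold the most matches. Capitals mark ACGTG or its reverse complement CACGT, which overlap in CACGTG. A match describes the letters of the window and is not a measured site, and the lack of one does not show that a gene is no target.
Hk2: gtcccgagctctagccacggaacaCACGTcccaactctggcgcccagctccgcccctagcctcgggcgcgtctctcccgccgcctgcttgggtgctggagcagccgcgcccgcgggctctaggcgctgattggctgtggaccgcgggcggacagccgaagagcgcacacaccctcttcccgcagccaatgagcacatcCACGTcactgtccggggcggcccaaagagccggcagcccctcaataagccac
Pgk1: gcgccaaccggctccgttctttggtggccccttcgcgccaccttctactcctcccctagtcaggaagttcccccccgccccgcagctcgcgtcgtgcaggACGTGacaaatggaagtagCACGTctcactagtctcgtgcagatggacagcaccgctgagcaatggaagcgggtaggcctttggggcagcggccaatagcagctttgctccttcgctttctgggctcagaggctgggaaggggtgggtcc
Ldha: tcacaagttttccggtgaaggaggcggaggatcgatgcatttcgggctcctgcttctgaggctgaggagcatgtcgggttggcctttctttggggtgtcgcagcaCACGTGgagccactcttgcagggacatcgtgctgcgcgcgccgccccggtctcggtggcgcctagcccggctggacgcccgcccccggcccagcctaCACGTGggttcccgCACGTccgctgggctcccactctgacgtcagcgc

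The rest of the pathway was read from a list of 59 other genes of glucose and lactate transport, other isoenzymes and steps, the pyruvate dehydrogenase step, the pentose phosphate pathway and their regulators, of which 38 are endogenous genes of the panel and 31 were tested. In edgeR 0 of the 31 passed an FDR below 0.1 in any of the 6 comparisons. In the combination against Scram+IgG 3 had an unadjusted p below 0.05 and were higher and 2 were lower, together 16.1% beside 12.8% of all tested genes, and the median of the 31 was 0.09, beside 0.12 over the panel. For transport into and out of the glycolytic route, the glucose transporter Slc2a1 had a log2 fold change of 1.41 (95% interval 0.37 to 2.45, FDR = 0.309) and the lactate exporter Slc16a3 one of 1.43 (0.05 to 2.81, FDR = 0.375). Slc2a3 had 1.13 (FDR = 0.558) and Slc16a1 -0.99 (FDR = 0.624). With 1 mouse left out at a time Slc2a3 ran from 0.71 to 2.83 and Slc16a3 from 0.98 to 2.42. Slc2a1 was counted 670, 53 and 360 times in Scram+IgG mice 1 to 3 and 10, 179 and 12 times in the ANT008+aPD-1 mice. The 12 of mouse 3 did not exceed background, and the 10 of mouse 1 barely did, with a background of 9.94 in its lane. Slc16a3 was counted 1169, 25 and 456 times against 4, 382 and 24 times, with mouse 1 below background. In ANT008+aPD-1 mouse 2, the deep lane, the scaled count was 141 for Slc2a1 and 301 for Slc16a3, above the 50.5 to 109 and 23.8 to 190 of the Scram+IgG mice. After background subtraction the log2 fold changes were 0.85 (FDR = 0.518) and 1.15 (FDR = 0.533).

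At the exit of the pathway, Ldhb, the isoenzyme of Ldha that favours lactate use, had a log2 fold change of 1.71 in the combination (FDR = 0.428), with 3 and 8 counts below background in ANT008+aPD-1 mice 1 and 3, and 0.46 after background subtraction (FDR = 0.912). Mpc1, a subunit of the mitochondrial pyruvate carrier, had 0.87 (FDR = 0.337, edgeR), and 0.23 after background subtraction. The pyruvate dehydrogenase kinases, which hold pyruvate back from the mitochondrial oxidation, had values of -0.81 for Pdk1 (FDR = 0.458), 1.04 for Pdk2 (FDR = 0.602), 0.00 for Pdk3 (FDR = 0.998) and 0.10 for Pdk4 (FDR = 0.975). Pdk2 was -1.50 without ANT008+aPD-1 mice 1 and 3, Pdk3 -0.60 and Pdk4 -1.13 after background subtraction, so that of the kinases Pdk1 kept its direction in all alternatives. Eno3 had -1.47 (FDR = 0.309, edgeR), with 5 and 12 counts at or below background in ANT008+aPD-1 mice 1 and 3. Myc, a transcription factor that raises glycolytic genes in activated T cells, had -1.16 (FDR = 0.362, edgeR) and was not above background in all 12 lanes. For Myc all 3 ANT008+aPD-1 mice lay below all 3 Scram+IgG mice, where 13.6% of the tested genes had groups apart in either direction.

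In voom, Slc2a1, Slc2a3, Slc16a3, Ldhb, Eno3, Mpc1 and Myc of this list passed an FDR below 0.1 in the combination (FDR between 0.0259 and 0.0626), which is 22.6% of the 31 beside 24.4% of all genes, and over all alternatives the FDR of these genes ran from 0.0213 to 0.917. Most of these calls were not particular to the combination, since voom also called 9 of the 31 (29%, beside 22.3% of all genes) in Scram+aPD-1 against Scram+IgG, Slc2a1, Slc2a3, Slc16a3, Ldhb and Eno3 among them, and 3 (9.68%, beside 6.88%) in ANT008+IgG against Scram+IgG, which were Slc2a1, Slc2a3 and Vhl. Without Scram+IgG mouse 1, edgeR gave Slc2a1 an FDR of 0.0482, Slc2a3 0.0347, Slc16a3 0.0347, Eno3 0.0347 and Ldhb 0.0907, 16.1% of the 31 beside 13.1% of all genes. Without ANT008+aPD-1 mouse 2 it called 3 of the 31 (9.68%), Slc2a1 (FDR = 0.0985) and Mpc1 (FDR = 0.0932) among them, beside 10.6% of all genes. Outside the rule by which genes were named, Hk3, a hexokinase found mainly in myeloid cells, was the 1 gene of the list with an unadjusted p below 0.05 in Scram+aPD-1 against Scram+IgG (log2 fold change 1.81, FDR = 0.988, edgeR), named after its values were seen. That is 3.23% of the 31, beside 1.09% of all tested genes. With 1 mouse left out at a time the log2 fold change of Hk3 ran from 0.98 to 2.26. Without Scram+aPD-1 mouse 3, 0% of the list had an unadjusted p below 0.05 in edgeR. Against ANT008+IgG the combination had a log2 fold change of 0.77 for Mpc1 (FDR = 0.578, edgeR), which was 0.24 after background subtraction, and of -1.45 for Myc (FDR = 0.578, edgeR). With 1 mouse left out at a time the value of Myc in this comparison ran from -1.71 to -0.89.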

How the data were processed

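Counts were measured in 12 lanes, 1 per mouse, and the authors deposited them as raw counts of each probe, without background subtraction or scaling. The vendor's deposited panel definition, whose values are of another kind (probe target sequences), gave the targets. Lanes were assigned to the 4 groups by their titles, which match the sample labels. Mouse 1 with Scram+IgG and mouse 1 with ANT008+IgG carry a FLAG mark without a reason, and their lanes were kept.

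Background, lane size and the gene filter are those given with the results. The 640 genes were fitted with glmQLFit of edgeR 4.0.16 under R 4.3.3 and tested with glmQLFTest, the 4 groups in 1 model and log lane size as the offset, Benjamini-Hochberg adjustment and an FDR threshold of 0.1. Standard errors came from the F statistic and 95% intervals from its degrees of freedom. Single values were compared by the exact permutation test of 3 mice against 3. Relations used log2(scaled count + 1) and 100000 permutations.

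The members and the lists of other genes and markers were chosen with earlier results of these data known. Named were all enzymes on the panel, and from the other genes of the pathway the transporters, the pyruvate dehydrogenase kinases, Ldhb and any gene at an unadjusted p below 0.05 in the combination. Alternatives were other scalings, filters, subtraction of the background down to a minimum of 1, the tools DESeq2 1.42.0, limma 3.58.1 on log2 scaled counts and with voom and sample weights, a replicate block, fewer groups, and each mouse left out. DESeq2 scaled the lanes by its own estimate, so its results differ from those of edgeR in scaling as well as in test. The removal of Gpi1 from the medians, the removal of the lanes with a FLAG mark, the counts over the 142 genes above background in all lanes, and the alternatives for single genes other than the enzymes in the combination were chosen after seeing the data. RefSeq GRCm38.p6 gave names for the 8 enzymes and the promoter windows. The myeloid markers shown are 12 of the 13 listed, a set chosen after seeing the data, and 1 is not reported here. The other experiments of the study were not analysed here.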

Additional observations from a re-analysis of the deposited data

How the results depend on the processing

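Depth limits the ANT008+aPD-1 group most, since 2 of its 3 lanes are the shallowest and values under their scaled background cannot be seen. Lanes scaled by the positive control probes moved every median with depth. The panel medians were then -0.66, -0.83, -4.38, -3.71, -3.56 and -2.85 for the antagonist, anti-PD-1 and the combination against control, the combination against each of these agents in turn, and the interaction. The medians of the enzymes in the same order were -1.03, -0.63, -4.46, -3.23, -3.81 and -2.63. With TMM scaling the panel median of the combination was -0.10 and that of the enzymes -0.56. Voom gave the enzymes medians of -0.46, 0.054, -0.35, 0.33, -0.37 and 0.25 in that order, beside panel medians of -0.018, -0.0068, 0.29, 0.36, 0.26 and 0.25. Its distance from the panel for the antagonist alone, -0.44, was the largest of all alternatives there, the cause of which was not tested.

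The number of genes called was 44, 143, 156 and 5 with voom in the first 4 of these comparisons. It was 30, 5 and 5 with DESeq2 for the combination against control, antagonist and anti-PD-1. Against Scram+IgG the combination gave 1 gene with the total endogenous count as scaling and 83 without the 2 lanes with a FLAG mark. With 1 mouse left out at a time the count ran from 0 to 84 for ANT008+aPD-1 against Scram+IgG, 0 to 26 against ANT008+IgG, 0 to 35 against Scram+aPD-1 and 0 to 1 in the interaction. Other alternatives gave 0 genes in edgeR.

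With 1 mouse left out at a time the medians of the enzymes ran from -0.39 to 0.30 for ANT008+IgG and 0.02 to 0.66 for Scram+aPD-1 against Scram+IgG. For ANT008+aPD-1 they ran from -0.54 to -0.10 against Scram+IgG, -0.56 to 0.33 against ANT008+IgG and -1.07 to -0.29 against Scram+aPD-1, and for the interaction from -1.07 to -0.20. With the replicate number as a block they were 0.01, 0.44, -0.36, -0.35, -0.72 and -0.83 in the order of the comparisons above, with 0 genes called in each, although equal numbers do not mean the same animal and only 3 of 12 lanes correlated best with a lane of their own number.

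The share of the enzymes among the 142 genes above background in all lanes was 21.8%, 20.1%, 23.2% and 17.7% for control, antagonist, anti-PD-1 and combination, a change that follows from the smaller total. The share of all endogenous counts was 15.1% for ANT008+aPD-1 with the background subtracted. Without subtraction and with 1 mouse left out at a time, that share of all counts ran from 14.2% to 16.2%, 13.0% to 14.9%, 16.1% to 17.6% and 10.7% to 13.1%. The filter on all lanes leaves no value for Gpi1 and Pgk1.

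With the positive controls as scaling nearly all genes are lower, and for Scram+aPD-1 against Scram+IgG the median of all 8 enzymes turned to -0.63. Not every enzyme was followed singly through the alternatives in each comparison. Among the values that were, those that changed sign with this scaling were Hk2 (-0.29), Pkm (-0.59) and Gapdh (-0.61) for Scram+aPD-1 against Scram+IgG. In the combination they were Hk2 (-4.00), Gpi1 (-3.28), Slc2a1 (-3.42), Slc2a3 (-3.70), Slc16a3 (-3.05), Ldhb (-3.84), Pdk2 (-4.63), Pdk3 (-4.38), Pdk4 (-4.48) and Mpc1 (-3.79). Gpi1 turned to -3.01 against ANT008+IgG, -2.35 against Scram+aPD-1 and -2.08 in the interaction, and Mpc1 to -3.13 against ANT008+IgG.

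Pdk3, with 0.00, turned with TMM (-0.15), the total count (-0.030), all housekeeping genes (-0.12), background subtraction (-0.60), DESeq2 (-0.061), limma on log2 scaled counts (-0.15), only the groups compared (-0.0010), without both shallow ANT008+aPD-1 lanes (-0.046), and ran from -0.19 to 0.12 with 1 mouse left out, negative without Scram+IgG mouse 2 or ANT008+aPD-1 mouse 3. Pdk4 turned with TMM (-0.085), all housekeeping genes (-0.066), background subtraction (-1.13), without both shallow lanes (-0.86), without the lanes with a FLAG mark (-0.26), and ran from -0.70 to 1.23 with 1 mouse left out, negative without Scram+IgG mouse 1 or ANT008+aPD-1 mouse 1. Pdk2 turned without both shallow lanes (-1.50) and ran from -0.15 (without ANT008+aPD-1 mouse 3) to 1.78 with 1 mouse left out. In the combination Gapdh turned to 0.068 without both shallow lanes, and Pgk1 ran from -1.17 to 0.052 (without ANT008+aPD-1 mouse 1) with 1 mouse left out. For Scram+aPD-1 against Scram+IgG, Pkm ran from -0.057 (without Scram+aPD-1 mouse 3) to 0.93. In ANT008+aPD-1 against Scram+aPD-1, Hk2 was 0.40 with voom and ran from -1.07 to 0.41 (without Scram+aPD-1 mouse 3). Where a group was left with 1 lane, that lane was assumed to vary like the other groups.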
